A study of Homo sapiens with 9 samples.

Results

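Receptor tyrosine kinases sit in the plasma membrane, bind a ligand outside the cell and phosphorylate tyrosines inside it, which recruits the PI3K and RAS to MAPK cascades that drive growth, survival and migration. Rhabdomyosarcoma is a tumour of cells related to skeletal muscle, and members of this protein class such as PDGFRA, MET and ALK have long been studied in it. The genes described here are the receptor tyrosine kinases of a kinome knockout library outside the FGF receptor and insulin receptor families. They were picked by name from a list of 44 genes, and all 44 were present, out of 763 genes targeted. No measured value set the rule, but the list was drawn up with earlier results of these data known. Each had 4 single guide RNAs (sgRNAs), so the genes accounted for 176 of 3152 sgRNAs, and they were grouped into 15 subfamilies by sequence and ligand class.

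The screen was made in RH4, 1 human rhabdomyosarcoma line with the PAX3::FOXO1 fusion, carrying the Brunello kinome library, in which each cell receives Cas9 and usually 1 sgRNA. All 3 groups carried the fusion and the library and had been selected with puromycin. They were baseline cells, vehicle cells (10 days in DMSO, as the study's legends have it), and pralatrexate cells, kept over the same 10 days in 1.5 nM of this antifolate, which blocks dihydrofolate reductase. Each group had 3 libraries of sgRNA cassettes amplified from genomic DNA, and the reads of an sgRNA track how many cells carry it. The comparison of vehicle with baseline asks which knockouts cost or favour growth, and the comparison of pralatrexate with vehicle asks which knockouts make cells more or less sensitive to the drug. The labels number the libraries as repeats and the study describes both triplicate cultures and technical replicates, so the p-values cover the variation among these libraries alone, which may be technical. The labels and the methods put puromycin selection at 72 h while the main text gives a longer one. The labels and the methods also give 72 h of recovery between baseline and treatment. The main text does not mention this recovery, which leaves the interval between baseline and day 10 unsettled. Reads per sgRNA do not measure expression. The study also sequenced RNA of RH4-flag cells, a tagged derivative of the line, but those data were not used. Which of these receptors RH4 cells express was therefore not checked here.

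Libraries held 2468136 to 4602712 reads. All 176 receptor sgRNAs were kept for testing, with a median of 1250 reads over the baseline libraries (range 174 to 2629). A log2 fold change was set against the whole library (TMM scaling), so 0 stands for a typical sgRNA and not for an sgRNA without effect. The 99 non-targeting sgRNAs tested lay at a median of 0.31 on this scale in vehicle against baseline (SD 0.13), and 38 of them rose at a false discovery rate (FDR) under 0.05. For comparison of scale, 15 broadly essential genes, such as those for mitotic and replication kinases, had a median of −2.12, and 12 of them were depleted. A gene value is the mean over its 4 sgRNAs, given with the SD over those sgRNAs. A gene was called depleted or enriched by robust rank aggregation, which asks whether its sgRNAs stand high in the ranking of all sgRNAs by p-value.

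None of the 44 receptors was depleted and none was enriched after 10 days with vehicle, where 6.68% and 0.393% of all 763 genes were called in these directions. Their median log2 fold change was 0.04 (SD 0.15 over genes), with a range of −0.41 to 0.33. Over all genes the median was 0.02 (SD 0.48) and the range was −3.25 to 0.91. Without adjustment for the number of genes, 1 receptor had a p under 0.05 for depletion (AXL) against 15.1% of all genes, and 5 for enrichment (EPHA2, ROS1, MET, EPHB6 and EGFR) against 7.86%. Of the 44 receptors 43, the exception being EGFR, lay below the median of the non-targeting sgRNAs, as did 751 of all 763 genes. This number was 44 without baseline 2, baseline 3 or vehicle 3, and 42 without vehicle 2, when FLT4 was also above. When libraries were scaled to the non-targeting sgRNAs, 73 receptor sgRNAs fell, where 45.2% of all sgRNAs did, and none rose, where 0.35% did. A second test, edgeR on the summed reads of the sgRNAs of a gene, called more genes of every kind. By it 4 receptors fell (ERBB3, PDGFRA, KDR and MST1R), where 21.1% of all genes did, and 7 rose (EGFR, MET, MERTK, ROS1, DDR1, RYK and EPHB6), where 14.3% did.

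**Figure D1:**
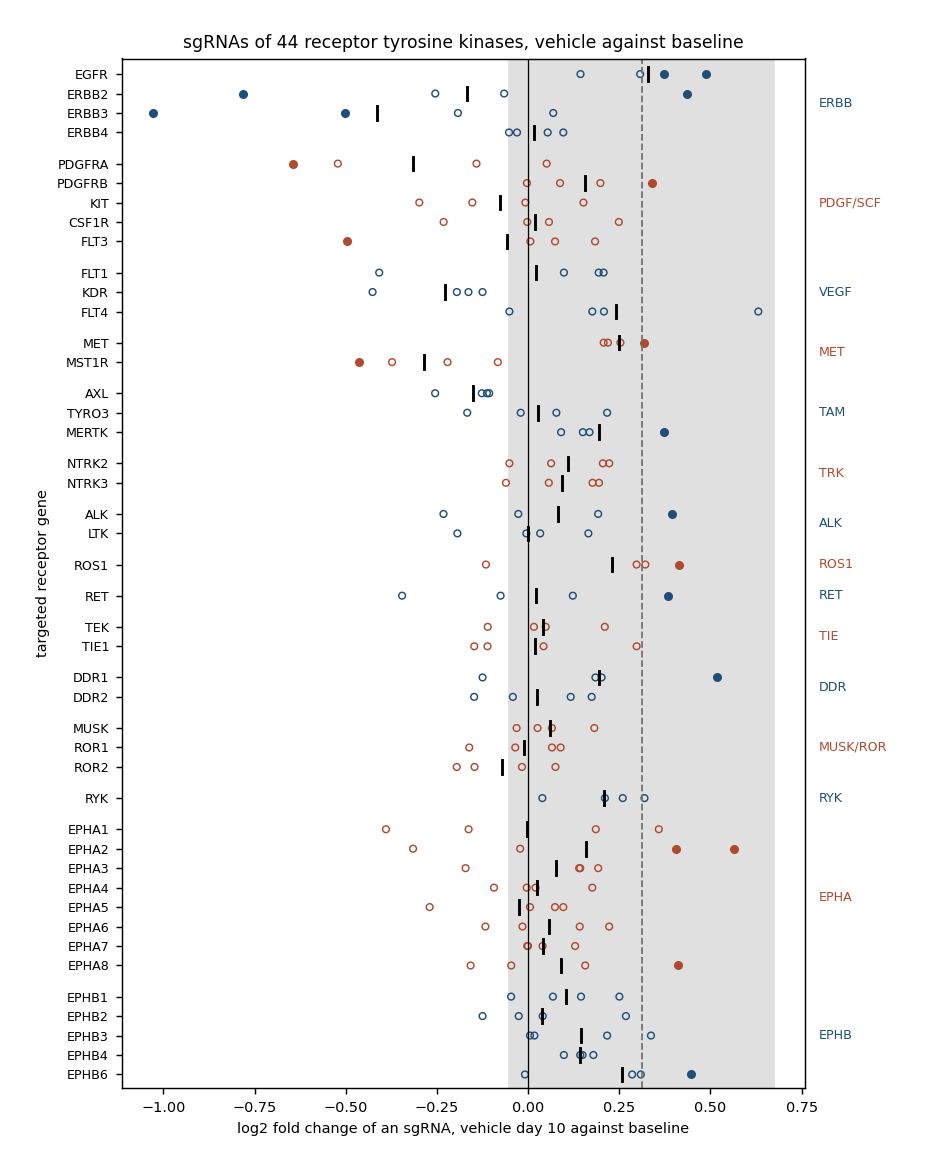
Log2 fold change of each of the 4 sgRNAs of 44 receptor genes in vehicle day 10 against baseline (circles, filled where the sgRNA passed an FDR of 0.05), with the mean of a gene as a black bar. The grey band spans the 99 non-targeting sgRNAs and the dashed line is their median (0.31). Of the 44 gene means 43 lie to the left of that line, and the lowest are those of ERBB3, PDGFRA and MST1R.

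The ERBB receptors bind EGF and neuregulin ligands and signal as dimers. ERBB3, which has a weak kinase of its own and signals through its partners, had the lowest value of the 44 receptors at −0.41 (SD 0.47 over 4 sgRNAs). Its level, as mean log2 CPM (reads scaled to library size) of its sgRNAs, was 8.35, 8.52 and 8.44 in the baseline libraries, 7.99, 8.02 and 8.07 with vehicle, and 8.10, 8.19 and 8.02 with pralatrexate. All 6 day 10 libraries lay below all 3 baseline libraries. Genes given such detail were picked as lowest or highest in a comparison, so separation of their libraries is not further evidence. Between baseline and vehicle, 24.4% of all genes were lower and 19.5% higher without overlap. The 4 sgRNAs did not move together. sgRNA 2 of the table's order fell by 1.03 (SE 0.17), from 1364, 1605 and 1080 reads at baseline to 486, 700 and 863 with vehicle. sgRNA 1 fell by 0.50 (SE 0.18), whereas the other two were at −0.19 and 0.07 and did not pass. Rank aggregation gave ERBB3 an FDR of 0.48, edgeR on summed reads gave −0.32 with an adjusted p of 0.000198, and without its farthest sgRNA its value was −0.21.

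EGFR, the receptor for EGF itself, had the highest value of the 44 at 0.33 (SD 0.14). Its level was 8.02, 7.87 and 7.83 at baseline, 8.23, 8.20 and 8.28 with vehicle, and 8.39, 8.15 and 8.23 with pralatrexate, again with no overlap between baseline and day 10. All 4 sgRNAs were above 0, and sgRNAs 2 and 3 rose, by 0.37 and 0.49. The gene was not called by rank aggregation (FDR 0.594), while the summed reads gave 0.32 with an edgeR adjusted p of 0.000606. Its distance from the median of the non-targeting sgRNAs was 0.01, so it was high only against the rest of the library. ERBB2, the partner without a known ligand, was at −0.17 (SD 0.50), the widest spread of any of the 44 receptors. It was the 1 receptor with sgRNAs called in both directions, as sgRNA 4 fell by 0.78 and sgRNA 1 rose by 0.44. ERBB4, another neuregulin receptor, was at 0.02 (SD 0.07).

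Among the receptors for PDGF, stem cell factor and colony stimulating factors, PDGFRA, a mesenchymal growth factor receptor, was lowest at −0.31 (SD 0.32). Its level was 8.11, 8.16 and 8.18 at baseline, 7.88, 7.72 and 7.89 with vehicle, and 7.79, 7.77 and 8.01 with pralatrexate. No day 10 library reached the lowest baseline library. sgRNA 3 fell by 0.65 (SE 0.13), and the others were at −0.52, −0.14 and 0.05 without passing. The rank aggregation FDR was 0.711, and the summed reads gave −0.33 with an edgeR adjusted p of 0.000319. Its close relative PDGFRB was at 0.16, with 1 of 4 sgRNAs called higher. KIT, the stem cell factor receptor, was at −0.08, CSF1R, the macrophage colony stimulating factor receptor, was at 0.02, and FLT3, a receptor of blood progenitors, was at −0.06 with sgRNA 3 called lower (−0.50). PDGFRA, KIT and KDR lie next to each other on chromosome 4 (GRCh38), and had values of −0.31, −0.08 and −0.23. On that build PDGFRA spans chr4:54229293-54298245, ERBB3 chr12:56080108-56103505, EGFR chr7:55019017-55211628, MET chr7:116672196-116798377, MST1R chr3:49887002-49903873 and AXL chr19:41219223-41261766. These are gene spans, since the positions of the sgRNAs were not used here.

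The VEGF receptors of endothelium were spread over both signs, with KDR at −0.23, FLT1 at 0.02 and FLT4 at 0.24. KDR had all 4 sgRNAs below 0 and FLT4 had 1 sgRNA at 0.63 that did not pass. That sgRNA had only 64 to 313 reads per library, and the summed reads gave FLT4 a value of 0.11. None of the 3 receptors had an sgRNA called in vehicle against baseline, while edgeR on summed reads called KDR lower (−0.23, adjusted p 0.0227).

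The MET subfamily, which binds hepatocyte growth factor and the related macrophage stimulating protein, split. MET was at 0.25 with the 4 sgRNAs close together (SD 0.05) and sgRNA 1 called higher (0.32), and its level went from 8.15, 8.09 and 8.27 at baseline to 8.38, 8.37 and 8.51 with vehicle and 8.42, 8.30 and 8.37 with pralatrexate. Every day 10 library lay above every baseline library, by a small margin at the nearest pair. MST1R, its paralog, was at −0.29 (SD 0.17) with all 4 sgRNAs below 0, and sgRNA 3 fell by 0.46 (SE 0.11). The MST1R level was 8.16, 8.05 and 8.02 at baseline, 7.92, 7.87 and 7.57 with vehicle, and 7.81, 7.95 and 7.89 with pralatrexate. The lowest library was vehicle 3, and without it the MST1R value was −0.18. Rank aggregation called neither gene (FDR 0.594 for MET enriched, 0.813 for MST1R depleted). The summed reads gave 0.25 for MET and −0.32 for MST1R, with edgeR adjusted p-values of 0.00201 and 0.000694.

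The TAM receptors bind GAS6, which tags dying cells. AXL was at −0.15 in vehicle against baseline with all 4 sgRNAs below 0 (SD 0.07), and its unadjusted p for depletion of 0.0399 gave an FDR of 0.273 by rank aggregation on edgeR p-values. TYRO3 was at 0.03. MERTK was at 0.20, with sgRNA 4 called higher (0.37), and edgeR on summed reads called the gene higher (0.20, adjusted p 0.0294).

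The Eph receptors read membrane-bound ephrins on neighbouring cells. The 8 EPHA genes had a median of 0.05, from EPHA5 at −0.02 through EPHA1 at 0.00, EPHA4 at 0.02, EPHA7 at 0.04, EPHA6 at 0.06, EPHA3 at 0.08 and EPHA8 at 0.09 (sgRNA 1 called higher at 0.41) to EPHA2 at 0.16. EPHA2 stood out for its spread (SD 0.40), with sgRNAs 1 and 2 called higher (0.41 and 0.56) and sgRNA 4 at −0.32. The 5 EPHB genes had a median of 0.14 and no value below 0, with EPHB2 at 0.04, EPHB1 at 0.10, EPHB4 and EPHB3 both at 0.14, and EPHB6 at 0.26 (SD 0.19). EPHB4, a receptor for ephrin-B2, had the tightest 4 sgRNAs of all 44 receptors (SD 0.03). EPHB6 lacks a working kinase. Its level was 8.35, 8.37 and 8.53 at baseline, 8.64, 8.58 and 8.79 with vehicle, and 8.62, 8.59 and 8.88 with pralatrexate, without overlap between baseline and day 10. Only its sgRNA 2 was called higher (0.45), while sgRNA 3 was at −0.01. The summed reads gave 0.26 with an edgeR adjusted p of 0.00268.

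The receptors best known from gene fusions in cancer were near 0 or above. ALK was at 0.08 (sgRNA 2 called higher at 0.40), its paralog LTK at 0.00, RET, the receptor for GDNF ligands, at 0.02 (sgRNA 2 called higher at 0.38) and ROS1 at 0.23 (sgRNA 1 called higher at 0.41). The neurotrophin receptors NTRK2 and NTRK3 were at 0.11 and 0.09. The angiopoietin receptor TEK was at 0.04 and its relative TIE1 at 0.02. The collagen receptors DDR1 and DDR2 were at 0.19 and 0.03, and sgRNA 2 of DDR1 was called higher (0.52). MUSK, which organises the neuromuscular junction, was at 0.06, and the WNT5A receptors ROR1 and ROR2 at −0.01 and −0.07. RYK, a Wnt co-receptor without kinase activity, was at 0.21. Rank aggregation called none of these genes, while edgeR on summed reads called ROS1 (0.24, adjusted p 0.00408), DDR1 (0.28, adjusted p 0.00289) and RYK (0.20, adjusted p 0.0213) higher.

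Of the 176 receptor sgRNAs, 6 (3.41%) fell in vehicle against baseline, where 12.8% of all 3145 sgRNAs did, and 14 (7.95%) rose, where 6.26% did. The 6 that fell belonged to ERBB3, ERBB2, PDGFRA, FLT3 and MST1R, and no gene other than ERBB3 had more than 1 of them. Libraries of baseline and vehicle did not overlap for 5 receptors that were lower and 10 that were higher, against 24.4% and 19.5% of all genes. All 4 sgRNAs of a gene were below 0 for 3 receptors (17.3% of genes) and above 0 for 6 (15.9% of genes). The median SD over the 4 sgRNAs of a gene was 0.16 for the receptors and 0.19 for all genes.

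**Figure D2:**
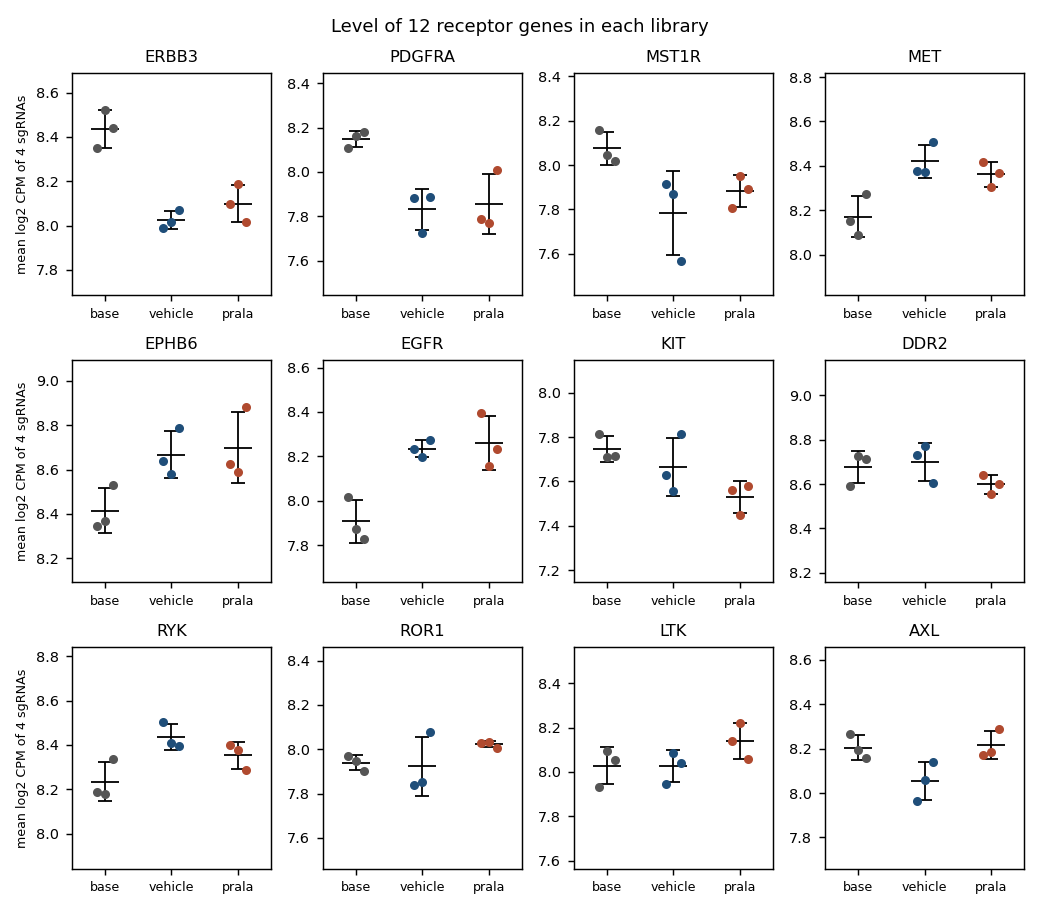
Level in each of the 9 libraries of the 12 receptor genes with the lowest and highest values in the comparisons of vehicle with baseline and pralatrexate with vehicle, as mean log2 CPM of 4 sgRNAs (points), with mean and SD over 3 libraries (bars). Every panel spans the same range of log2 CPM around its own mean. ERBB3, PDGFRA and MST1R are lower and MET, EPHB6 and EGFR higher in all day 10 libraries than in all baseline libraries. They were picked as lowest and highest in vehicle against baseline, so this separation is not further evidence. Between baseline and vehicle, 24.4% of all genes were lower and 19.5% higher without overlap.

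With pralatrexate against vehicle the receptors hardly separated from each other. None of the 44 was depleted, where 0.524% of all 763 genes (4 genes) were, and none was enriched, as was true of all genes. Without adjustment 0 receptors passed for depletion (3.93% of genes) and 2 for enrichment (5.37% of genes), namely AXL and ERBB4. The ERBB4 gene value was only 0.01, with sgRNAs at 0.41 and 0.04 and 2 below 0 (−0.27 and −0.14). No single receptor sgRNA was called by edgeR, where 0.0318% of all sgRNAs fell and none rose. At an unadjusted p under 0.05 there were 2 lower and 2 higher, against 2.99% and 2.61% of sgRNAs. edgeR on summed reads called no receptor (0.655% and 0.131% of genes). The median was 0.01 (range −0.14 to 0.17, SD 0.06), and over all genes it was 0.01 with a range of −0.64 to 1.03. The 95% intervals of edgeR on summed reads over the 44 receptors lay between −0.30 and 0.32, with a median half-width of 0.14. Only that of AXL left out 0, and the intervals are not adjusted for the number of genes.

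AXL had the highest value at 0.17 (SD 0.10), with all 4 sgRNAs above 0, as for 3 of the 44 receptors and 6.55% of all genes. Its level was 7.97, 8.06 and 8.14 with vehicle and 8.17, 8.19 and 8.29 with pralatrexate, and it was the 1 receptor without overlap between these groups on the high side, where 3.67% of all genes had none. Its baseline libraries, at 8.27, 8.19 and 8.16, lay within or near the range of the pralatrexate libraries. Its unadjusted p for enrichment of 0.00967 became an FDR of 0.73 over all genes. The summed reads gave an interval of 0.02 to 0.32, with an edgeR adjusted p of 0.635. LTK, a receptor related to ALK, was at 0.12, from 7.95, 8.09 and 8.04 with vehicle to 8.14, 8.22 and 8.06 with pralatrexate, and it was 0.076 without pralatrexate 2. ROR1 was at 0.09, and its vehicle libraries, at 7.84, 7.85 and 8.08, enclosed its pralatrexate libraries at 8.03, 8.03 and 8.01. The ROR1 value was 0.056 without vehicle 1, 0.061 without vehicle 2 and 0.18 without vehicle 3, so it depended on which library was left out.

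KIT was lowest at −0.14 (SD 0.17), with 7.63, 7.55 and 7.81 in the vehicle libraries and 7.56, 7.45 and 7.58 in the pralatrexate libraries. The groups overlapped, and without vehicle 3, the highest of the 6, its value was −0.05. DDR2, a receptor for fibrillar collagen, was at −0.11, from 8.73, 8.77 and 8.61 with vehicle to 8.64, 8.55 and 8.60 with pralatrexate. RYK was at −0.08, from 8.50, 8.41 and 8.40 to 8.40, 8.38 and 8.29. In each of these 3 the groups overlapped. Within the same-numbered libraries, which deviated together, pralatrexate was below vehicle in all 3 pairs. These genes were picked as the lowest in this comparison, so the pairs are not further evidence. The differences were −0.06, −0.11 and −0.23 for KIT, −0.09, −0.22 and −0.01 for DDR2, and −0.10, −0.03 and −0.11 for RYK. All 3 pairs were lower for 5 of the 44 receptors and higher for 5, AXL and LTK among the latter, where 12.6% and 13.5% of all genes were. With the replicate number as a block, rank aggregation on edgeR p-values still called none of these 5 named genes (lowest FDR 0.774, for AXL). Without vehicle 2 the value of DDR2 was −0.07, and without vehicle 1 or pralatrexate 3 that of RYK was −0.05.

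**Figure D3:**
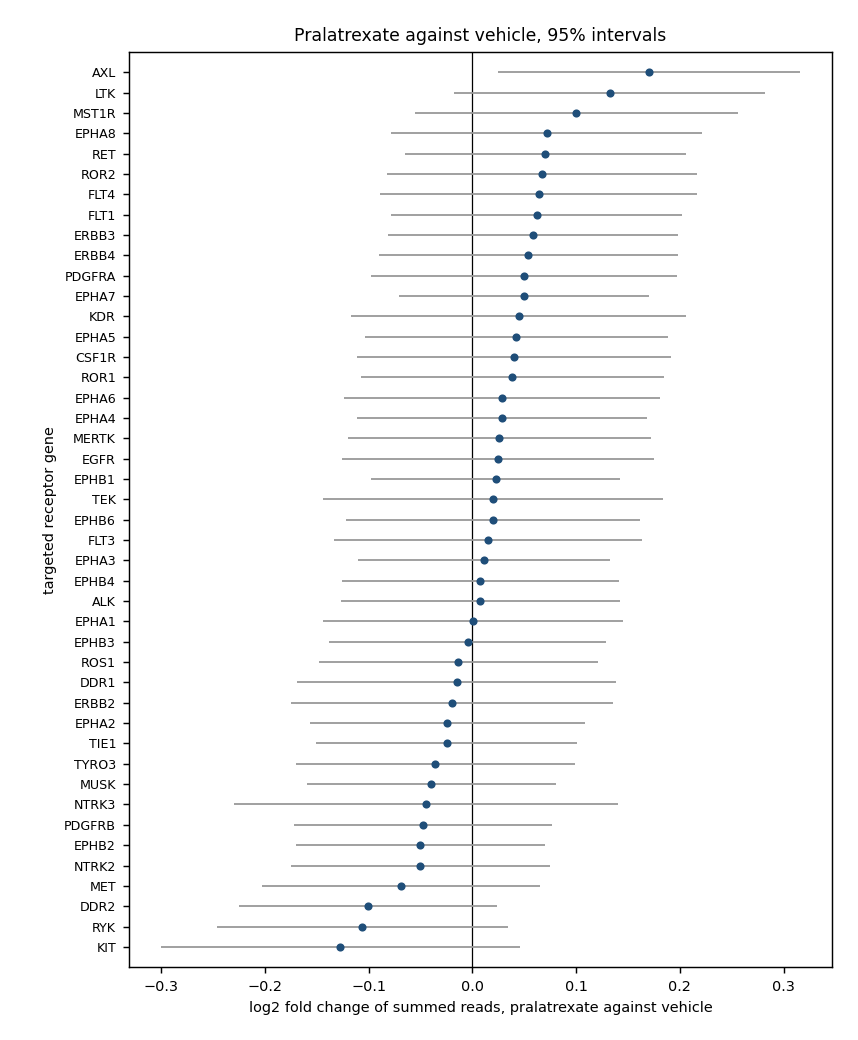
Log2 fold change of the summed reads of 4 sgRNAs in pralatrexate against vehicle (points) for 44 receptor genes in order of size, with 95% intervals from edgeR (lines). All intervals lie between −0.30 and 0.32, and only that of AXL leaves out 0. The intervals are not adjusted for the number of genes.

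The other 38 receptors lay between RYK and ROR1 in pralatrexate against vehicle. The ERBB genes were at 0.03 (EGFR), 0.03 (ERBB2), 0.08 (ERBB3) and 0.01 (ERBB4). PDGFRA was at 0.03, PDGFRB at −0.04, CSF1R at 0.04 and FLT3 at 0.02. The VEGF receptors were at 0.08 (FLT1), 0.00 (KDR) and −0.05 (FLT4). FLT4 had 3 sgRNAs above 0 and its sgRNA with the fewest reads at −0.44 (SE 0.33), and the summed reads gave 0.06. ERBB3 and EGFR, at opposite ends in vehicle against baseline, were thus both slightly above 0 here. MET was at −0.05 and MST1R at 0.09. TYRO3 was at −0.03 and MERTK at 0.01. ALK was at 0.01, RET at 0.08 and ROS1 at 0.00, with NTRK2 at −0.05 and NTRK3 at −0.01. None of these 5 reached the values of AXL or KIT. TEK was at 0.00, TIE1 at −0.01, DDR1 at 0.02, MUSK at −0.05 and ROR2 at 0.04. The EPHA genes were at −0.04 (EPHA6), −0.02 (EPHA2), 0.01 (EPHA4), 0.02 (EPHA1), 0.02 (EPHA3), 0.04 (EPHA7), 0.06 (EPHA5) and 0.07 (EPHA8). The EPHB genes ran from −0.04 (EPHB2) and −0.03 (EPHB3) to 0.02 (EPHB1), 0.02 (EPHB4) and 0.03 (EPHB6).

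Pralatrexate against baseline shares its baseline libraries with the first comparison, so its values are set beside those above and are not further evidence. None of the 44 receptors was depleted or enriched, where 7.21% and 0.262% of all genes were. Without adjustment 1 passed for depletion and 4 for enrichment (14.8% and 8.78% of genes), and edgeR on summed reads called 3 and 7 (22.9% and 16% of genes). ERBB3 was at −0.34, PDGFRA at −0.28, KDR at −0.23, KIT at −0.21 and MST1R at −0.20 at the low end, and ROS1 at 0.23, EPHB6 at 0.29 and EGFR at 0.36 at the high end. Of the receptor sgRNAs 4 fell and 11 rose, where 13.1% and 5.98% of all sgRNAs did. Scaled to the non-targeting sgRNAs these numbers were 55 and 0, where 42.9% and 0.254% of all sgRNAs were called. The lowest was again an sgRNA of ERBB3, at −1.10.

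Other kinases of the same screen give the scale. A list of 14 further receptors or receptor-like kinases, among them the FGF and insulin receptor families, had a median of −0.03 in vehicle against baseline. Their range was −1.39 to 0.22, and rank aggregation called none, the gene at −1.39 included. A gene with a low mean can thus go without a call. A list of 21 lymphoid or germline kinases, normally restricted to other tissues, had a median of −0.02, a range of −0.34 to 0.33 and no call, so the values of the 44 receptors covered about the same range as these. Of 43 kinases known to act downstream of receptors, 5 were depleted with vehicle, namely MTOR at −2.07, PDPK1 at −1.63, PIK3CA at −1.20, CSK at −0.84 and AKT1 at −0.51, and none was enriched. The first 3 and AKT1 belong to the PI3K cascade, and CSK restrains SRC family kinases. MTOR is also 1 of the 15 broadly essential genes used above for scale. The median of the 43 was −0.06. With pralatrexate against vehicle 1 of them was depleted, PIK3R1, a regulatory subunit of PI3K, at −0.40 (FDR 0.000277). With pralatrexate against baseline 5 were depleted, MTOR at −2.14, PDPK1 at −1.52, PIK3CA at −1.16, CSK at −0.76 and the focal adhesion kinase PTK2 at −0.55. No difference between these lists and the 44 receptors was tested.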

How the data were processed

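The authors deposited raw counts of reads per sgRNA for 9 libraries, without normalization. The submitters' processing notes name Bowtie 1.0.0, and the sources used here do not give its settings or what counted the reads. No molecular identifiers are mentioned, so PCR copies count as reads. Per-gene tables from MAGeCK (fold change, rank score, p and FDR for each direction) were also deposited and were not used.

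sgRNAs with a mean under 30 reads were removed (7 of 3152, none from the receptors). The rest were fitted with edgeR 4.0.16 in R 4.3.3 (quasi-likelihood, TMM, group as the only term, all 9 libraries), with Benjamini-Hochberg adjustment over all sgRNAs and an FDR threshold of 0.05. Robust rank aggregation, which the study ran in MAGeCK, was run here on one-sided edgeR p-values (those under 0.25 entering) with the exact null probability of the score, adjusted over all 763 genes per direction. Libraries of a group varied by 13.2% (coefficient of variation from the common dispersion of 0.0173), and every pair of libraries of a group differed by more than sampling noise. Levels are log2 CPM with a prior count of 2. The scripts were tested on simulated data.

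Same-numbered vehicle and pralatrexate libraries deviated together (correlations 0.17, 0.20 and 0.19 across sgRNAs), while baseline libraries did not pair with day 10 libraries (−0.03 to 0.07). The receptors, their subfamilies and the other lists were chosen with earlier results of these data known. Detail is given for receptors called at gene level, for the 3 lowest and 3 highest in vehicle against baseline and in pralatrexate against vehicle, and for any with an sgRNA called in the latter. Other values were described by range, or named after they were seen. Alternatives were DESeq2 1.42.0, scaling to non-targeting sgRNAs, other filters (none, or a mean of 300 reads), only the groups compared, a replicate block, leaving out each library, dropping the sgRNA farthest from 0, and summed reads. Gene spans are from RefSeq (GRCh38.p14).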

Additional observations from a re-analysis of the deposited data

How the results depend on the processing

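Rank aggregation called 0 receptors in each of the 3 comparisons under each alternative run over all genes. Dropping the sgRNA farthest from 0 was run for the 12 named values alone and called none of them. The replicate block changed no gene call (0 receptors), with 7 receptor sgRNAs lower and 15 higher in vehicle against baseline. edgeR on summed reads called 4 receptors depleted and 7 enriched in vehicle against baseline, and 3 and 7 in pralatrexate against baseline. With scaling to non-targeting sgRNAs the medians in these comparisons were −0.32 and −0.31 for all genes and −0.29 and −0.25 for the receptors. It gave 73 and 55 receptor sgRNAs lower, 0 higher in both, and turned MET to −0.086, EPHB6 to −0.077 and EGFR to −0.0062 in vehicle against baseline. DESeq2 gave 20 receptor sgRNAs higher in pralatrexate against baseline.

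Leaving out 1 library gave medians of 0.038 to 0.055 in vehicle against baseline, 0.00 to 0.02 in pralatrexate against vehicle and 0.06 to 0.08 in pralatrexate against baseline. In vehicle against baseline it gave 4 to 5 receptor sgRNAs lower and 5 to 12 higher, with the higher count moved by over 1.5 times without baseline 1 (9), baseline 2 (5) and baseline 3 (6). In pralatrexate against baseline it gave 1 to 3 lower and 3 to 7 higher, and the higher count moved by over 1.5 times without any one of the baseline or pralatrexate libraries, the lower count without baseline 1 (2), baseline 2 (1), baseline 3 (2) and pralatrexate 1 (1). These fits hold fewer libraries. No receptor sgRNA passed in pralatrexate against vehicle in any of them. Receptor sgRNAs had 64 to 3410 reads per library, and chi-square per degree of freedom between replicate libraries was 10.7 to 25.8, where sampling alone gives about 1. Intervals on summed reads had a median half-width of 0.14.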
